A study of Mus musculus with 16 samples.

Results

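The Nogo receptor family and its partners were followed as 7 genes among the 22337 gene rows of a brain RNA-seq table: the receptors Rtn4rl1, Rtn4rl2 and Rtn4r, the ligands Rtn4 and Omg, and the co-receptors Lingo1 and Tnfrsf19. Each was found by the Ensembl identifier of the mouse gene. Rtn4rl1 was chosen by its p-value, as the gene nearest to the threshold when nicotine was compared with saline, and the other 6 were named as its relatives and partners. Its adjusted p in that comparison was 0.0864, shared with Cdh18, and that of the next gene, Camkk1, was 0.111, so it lay outside the 0.05 threshold, as did every gene tested there. The values for nicotine against saline are therefore given as a description with no test, and the contrasts of Rtn4rl1 that use saline or nicotine libraries likewise.

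Nogo receptors are proteins with leucine-rich repeats that are tethered to the outer face of the neuronal membrane by a lipid anchor. Rtn4r binds the myelin-associated inhibitors Nogo (a product of Rtn4), MAG and OMgp (the product of Omg), and passes the signal through co-receptors such as LINGO-1, p75 and TROY (the product of Tnfrsf19) to the small GTPase RhoA, which collapses growth cones. In the adult brain the pathway is known for limiting axon sprouting and the remodelling of dendritic spines and synapses. Rtn4rl2 is a receptor for MAG, and Rtn4rl1 binds the glycosaminoglycan chains of chondroitin sulfate proteoglycans, as Rtn4r does.

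RNA was labelled as nucleus accumbens, the ventral part of the striatum, from male C57BL/6 mice. Exposure lasted 4 days, to saline as the control, to arecoline (the areca nut alkaloid, an agonist of muscarinic acetylcholine receptors), to caffeine (an adenosine receptor antagonist) or to nicotine (an agonist of nicotinic acetylcholine receptors), with 4 libraries in each group and 16 in all. No group carried an engineered allele according to the labels, and ages, doses and routes were not stated there. Whether each library is a different animal was not stated either, and the p-values rest on library-to-library variation that may be technical only.

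Library totals ran from 9.04 to 24.32 M estimated counts, with a median of 14.9 M. Markers of striatal neurons varied widely: Drd1, a dopamine receptor gene that marks the direct pathway, ran from 7.89 to 306 CPM (counts scaled to library totals with TMM factors, per M), and Adora2a, the adenosine receptor of indirect-pathway neurons, from 1.31 to 356 CPM. Adora2a was under 4 CPM in arecoline replicates 1 and 4 and in caffeine replicates 1, 2 and 3, which leaves the labelled tissue with little of this defining marker there. Saline replicate 3 and arecoline replicates 2 and 3 stood apart by high striatal markers, and nicotine replicate 2 by olfactory markers, with Omp, which marks mature olfactory sensory neurons, at 337 CPM. Results that rest on these 4 libraries are given with and without them. The striatal-rich ones held 6974 to 9294 CPM summed over 12 markers of medium spiny neurons, and the other libraries 484 to 2240 CPM. Leaving them out thus drops the libraries highest in markers of the labelled tissue. Saline then stands at 1860 to 2240 CPM of these markers and arecoline at 484 and 488 CPM. All 7 genes passed the filter on low counts. In such bulk samples, fewer cells of a type and less RNA per cell cannot be told apart.

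Promoter sequence was found in a RefSeq table (GRCm38.p6) for 5 of the 7 genes, and 3 windows are shown: those of Rtn4r and Rtn4rl2, whose log2 levels had a Pearson r of 0.83 over the 16 libraries, and that of the first annotated start of Tnfrsf19, with -0.08 against Rtn4r. Each is the 250 bases before an annotated start, on the strand of the gene and 5′ to 3′, with GC boxes (GGGCGG or its complement CCGCCC) in capitals. The Rtn4r window lies at chr16:18127392-18127641 on the plus strand, the Rtn4rl2 window at chr2:84886693-84886942 on the minus strand, with 18 bases inside an annotated exon, and the Tnfrsf19 window at chr14:61046856-61047105 on the minus strand.
Rtn4r: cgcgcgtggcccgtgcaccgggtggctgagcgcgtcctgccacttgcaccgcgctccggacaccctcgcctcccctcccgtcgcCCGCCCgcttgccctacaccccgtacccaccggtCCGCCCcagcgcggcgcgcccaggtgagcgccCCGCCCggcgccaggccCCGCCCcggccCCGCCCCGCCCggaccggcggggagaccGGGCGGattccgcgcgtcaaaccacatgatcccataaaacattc
Rtn4rl2: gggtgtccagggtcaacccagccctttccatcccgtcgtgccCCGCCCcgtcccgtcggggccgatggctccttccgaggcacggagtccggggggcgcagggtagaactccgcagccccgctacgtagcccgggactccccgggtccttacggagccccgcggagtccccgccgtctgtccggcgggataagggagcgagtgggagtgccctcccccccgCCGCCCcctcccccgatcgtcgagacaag
Tnfrsf19: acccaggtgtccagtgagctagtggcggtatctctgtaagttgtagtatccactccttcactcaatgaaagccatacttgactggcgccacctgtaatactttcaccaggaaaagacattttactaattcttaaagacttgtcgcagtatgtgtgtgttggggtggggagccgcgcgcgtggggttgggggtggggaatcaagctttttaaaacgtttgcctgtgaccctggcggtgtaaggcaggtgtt
The Rtn4r window held 7 GC boxes, overlapping ones included, at 77.2% G and C with 38 CpG, and the Rtn4rl2 window held 2 at 73.6% with 29 CpG. The shown Tnfrsf19 window held 0 at 50% with 9 CpG, but the window of another annotated start of that gene, at chr14:61037988-61038237 and not shown, held 3 at 59.2% with 8 CpG. At least 1 GC box was present in 32.7% of the 32851 windows of this length in the table. In the 3 windows shown there was no TATAAA (12.4% of all windows), CCAAT (33.8%), GCGTGGGCG (0.536%) or TGACGTCA (1.55%) on either strand. TGACG, which is part of the last motif, was found once, in Rtn4r, and in 17.8% of all windows. For the shown Rtn4rl2 and Tnfrsf19 windows, the bases just after the annotated start were not found in a GENCODE M21 transcript of the gene. Lingo1, with a Pearson r of 0.89 against Rtn4r, had 1 GC box in each of its windows, which are not shown. These matches describe letters in the windows and not bound sites, and no link between them and the levels was tested.

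On the length-scaled FPKM scale, which alone allows levels of different genes to be compared, Rtn4 led in all 16 libraries, with 219 to 438 FPKM. Rtn4 makes several reticulons that shape the endoplasmic reticulum, of which Nogo-A is the growth inhibitor, and gene totals do not separate them. Omg followed with 56.1 to 88.8 FPKM and Lingo1 with 21.9 to 72.9 FPKM, and Lingo1 stood above Omg in caffeine replicates 1 and 2 alone. Among the receptors, Rtn4rl1 had 17.0 to 31.7 FPKM, Rtn4rl2 0.66 to 34.3 FPKM and Rtn4r 2.07 to 12.4 FPKM. Tnfrsf19 had 13.8 to 27.2 FPKM. The best known receptor of the family, Rtn4r, was thus below Rtn4rl1 in all 16 libraries, by a ratio of 2.30 to 8.71.

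**Figure D1:**
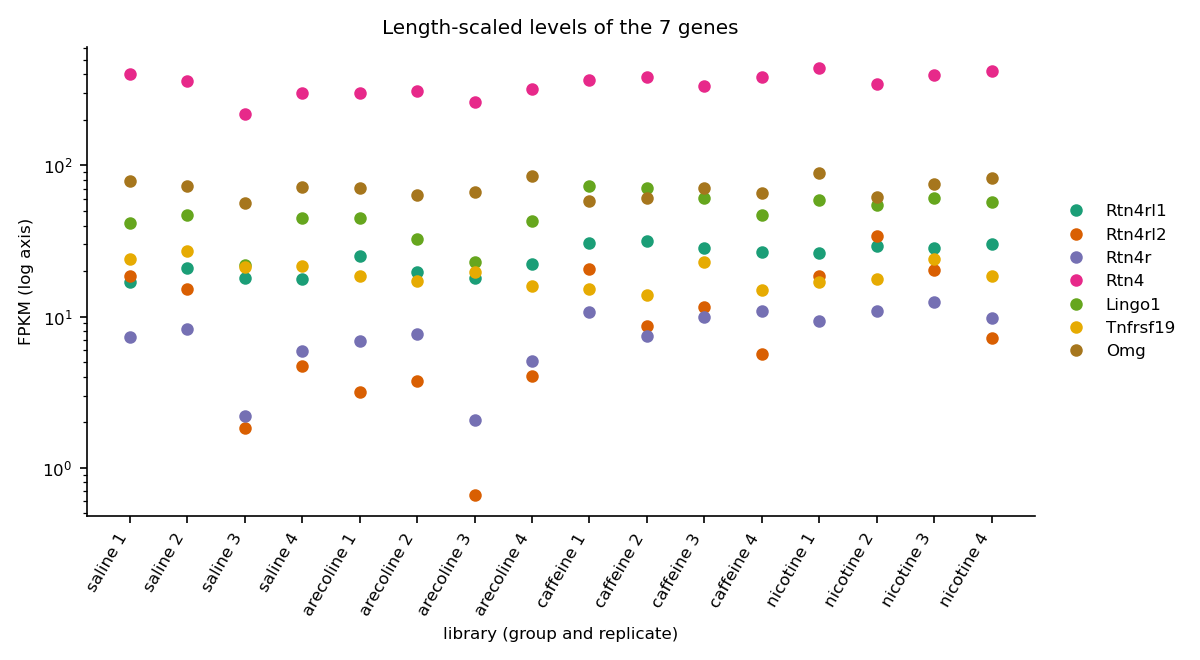
FPKM of the 7 genes (log axis) in each of the 16 libraries, 1 point per gene and library. Rtn4 lies highest in every library, between 219 and 438 FPKM, while Rtn4rl2 spans 0.66 to 34.3 FPKM.

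The ratio of Rtn4rl1 to Rtn4r was 2.33, 2.54, 8.23 and 2.97 in saline replicates 1 to 4 and 3.67, 2.58, 8.71 and 4.38 with arecoline. It was 2.84, 4.28, 2.86 and 2.48 with caffeine and 2.81, 2.70, 2.30 and 3.11 with nicotine. Its highest values came from saline replicate 3 and arecoline replicate 3, both libraries that stood apart, in which Rtn4r was lowest. The ratio of Rtn4rl2 to Rtn4r was below 1 in all 4 arecoline libraries, from 0.319 to 0.801, whereas each other group held libraries on both sides of 1. The ratio of the ligand Rtn4 to its receptor Rtn4r was 62.4 ± 25.4 with saline, 68.7 ± 39.8 for arecoline, 38.7 ± 8.64 for caffeine and 38.4 ± 7.69 for nicotine (SD over 4 libraries each).

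Rtn4rl1 (mm10 chromosome 11, 75193783 to 75267769, plus strand, 2 exons) had 62.1, 75.7, 63.2 and 62.3 CPM in saline replicates 1 to 4 and 87.9, 71.2, 64.2 and 79.4 CPM with arecoline. It had 112, 116, 102 and 96.7 CPM with caffeine and 97.0, 102, 105 and 109 CPM with nicotine. Every caffeine and nicotine library lay above every saline and arecoline library, while saline and arecoline overlapped, as did caffeine and nicotine. Against saline the log2 fold change was 0.65 ± 0.10 (SE) with nicotine, the value that chose the gene, 0.70 ± 0.10 with caffeine and 0.20 ± 0.10 with arecoline. The 3 comparisons share the saline libraries. Of its contrasts only arecoline against caffeine compared neither of the groups behind its choice. Rtn4rl1 had 75.7 ± 10.2 CPM with arecoline and 107 ± 8.98 CPM with caffeine (SD, n = 4). The edgeR model takes the spread from all 16 libraries, so these libraries still entered the p-value that chose the gene. Its test here is therefore not independent of that choice. The log2 fold change was -0.50 ± 0.10 (SE) and did not pass in edgeR (adjusted p = 0.109, lower in 4 of 4 libraries). DESeq2 gave an adjusted p of 0.00302 for the same difference, and the adjusted p over its 24 alternatives ran from 0.00302 to 0.425. Without the 4 libraries that stood apart the log2 fold change was -0.35 (adjusted p = 0.155, edgeR).

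Rtn4rl2 (chromosome 2, 84871924 to 84886710, minus strand, 4 exon blocks) was the most variable of the genes, with a 51.1-fold range over libraries. It had 25.0, 20.3, 2.31 and 6.00 CPM with saline, 3.97, 4.98, 0.865 and 5.38 CPM with arecoline, 28.0, 11.6, 15.3 and 7.51 CPM with caffeine, and 25.2, 44.2, 27.2 and 9.55 CPM with nicotine. Arecoline libraries all lay below every caffeine and nicotine library, and they overlapped with saline, in which replicates 3 and 4 were low. The lowest value, in arecoline replicate 3, rested on 13 estimated counts.

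Rtn4r (chromosome 16, 18127642 to 18152408, plus strand, 2 exons) had 14.7, 16.3, 4.21 and 11.5 CPM with saline and 13.2, 15.2, 4.06 and 9.98 CPM with arecoline. It had 21.7, 14.9, 19.6 and 21.4 CPM with caffeine and 19.0, 20.9, 25.0 and 19.4 CPM with nicotine. Saline replicate 3 and arecoline replicate 3 were the low libraries, nicotine lay above all saline and arecoline libraries, and caffeine replicate 2 fell among them.

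**Figure D2:**
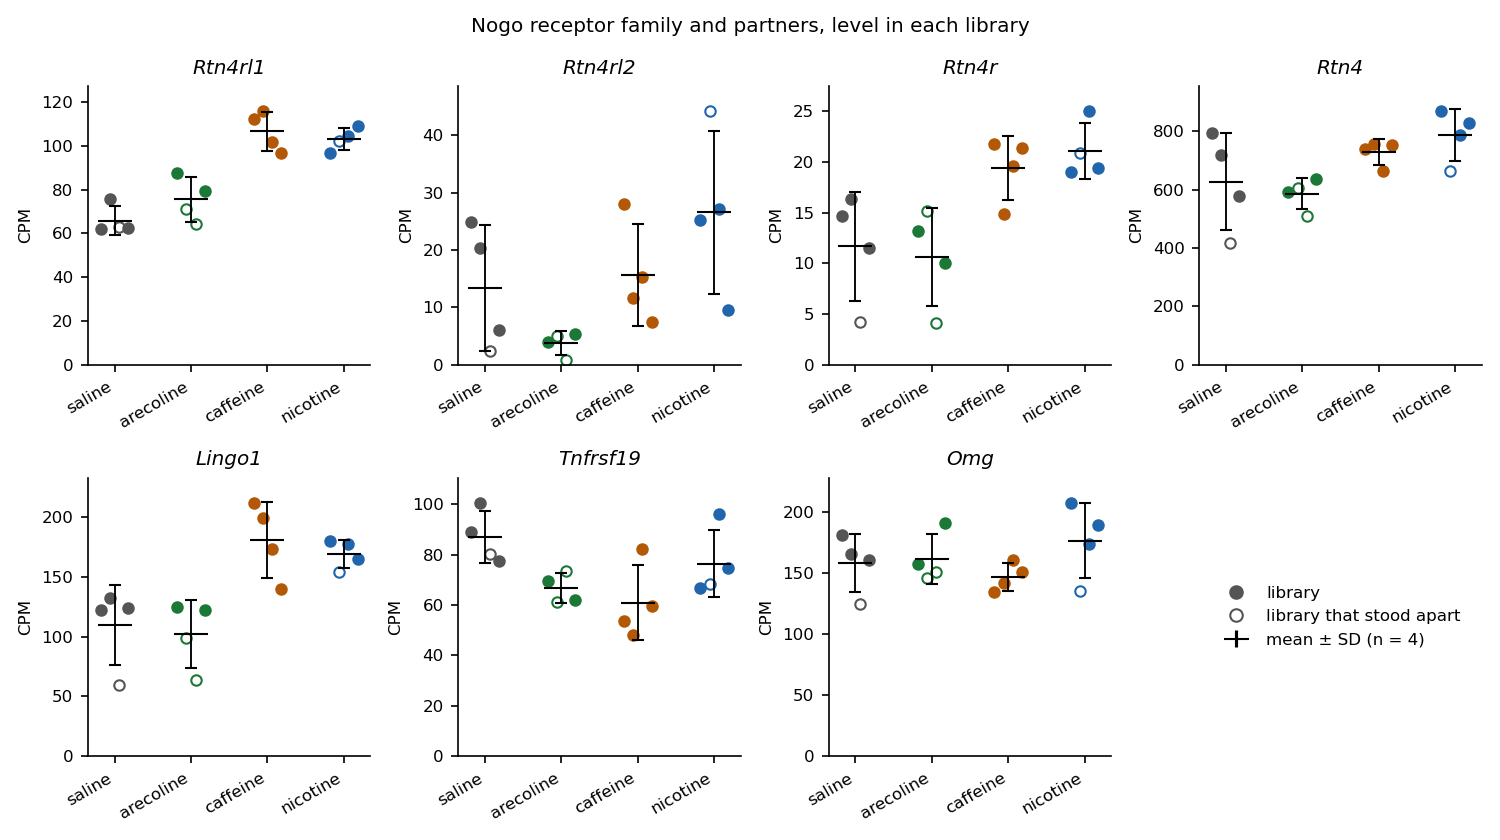
CPM of each of the 7 genes in the 4 groups (linear axes from 0), 1 point per library, with the group mean and SD (n = 4) and open points for the 4 libraries that stood apart. Caffeine and nicotine points of Rtn4rl1 (96.7 to 116 CPM) lie above all saline and arecoline points (62.1 to 87.9 CPM).

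Rtn4 (chromosome 11, 29692947 to 29744331, plus strand, 10 exon blocks) had 796, 718, 416 and 580 CPM with saline, 593, 606, 511 and 637 CPM with arecoline, 738, 758, 664 and 754 CPM with caffeine, and 869, 665, 788 and 827 CPM with nicotine. Saline spanned most of the range of the other groups and overlapped with each of them, while arecoline lay wholly below caffeine and nicotine. Rtn4 shares 1284 exonic bases with Eml6 on the opposite strand, and no label says whether strand was kept, so reads from that stretch cannot be told apart. Eml6 stood at 1.72 to 6.09 FPKM, against 219 to 438 FPKM for Rtn4.

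Omg (chromosome 11, 79500982 to 79504084, minus strand, 2 exon blocks) encodes a myelin and neuronal surface glycoprotein that binds Rtn4r, and lies within an intron of Nf1 with no exonic base shared. It had 181, 165, 124 and 161 CPM with saline, 157, 146, 150 and 191 CPM with arecoline, 134, 141, 161 and 150 CPM with caffeine, and 207, 135, 173 and 189 CPM with nicotine. All groups overlapped, and its 1.67-fold range over the 16 libraries was the narrowest of the 7 genes.

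Lingo1 (chromosome 9, 56618475 to 56796468, minus strand, 10 exon blocks), the leucine-rich repeat co-receptor of neurons, had 122, 133, 59.6 and 124 CPM with saline and 125, 98.7, 63.5 and 123 CPM with arecoline. It had 212, 200, 174 and 140 CPM with caffeine and 180, 154, 178 and 165 CPM with nicotine. As for Rtn4rl1, every caffeine and nicotine library lay above every saline and arecoline library, and saline replicate 3 and arecoline replicate 3 were lowest.

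Tnfrsf19 (chromosome 14, 60963875 to 61046490, minus strand, 12 exon blocks), a receptor of the tumour necrosis factor receptor family that can take the place of p75 beside Rtn4r, had its highest mean with saline. It had 89.0, 101, 80.4 and 77.5 CPM with saline, 69.6, 61.4, 73.6 and 62.0 CPM with arecoline, 53.8, 48.2, 82.2 and 59.6 CPM with caffeine, and 66.7, 68.4, 96.0 and 74.8 CPM with nicotine. All arecoline libraries lay below all saline libraries, and 3 of the 4 caffeine libraries did, with replicate 3 among the saline values. Ngfr, which encodes p75, was low in every group, at 3.87 to 7.09 CPM with saline and 2.25 to 4.97 CPM with caffeine.

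With caffeine against saline, 2 of the 7 genes did not overlap between groups (Rtn4rl1 and Lingo1, both higher), where 8.22% of all 14674 genes tested were higher without overlap. With Rtn4rl1 included, 1 of 7 passed an adjusted p of 0.05, against 4.08% of all genes. Since its saline libraries took part in its choice, nothing is read from that call or from its lack of overlap. Of the 6 genes that could be tested, 0 passed in edgeR and 2 had an unadjusted p under 0.05 (24.6% of all genes did). DESeq2 called 2, where it called 10.7% of all genes to which it gave an adjusted p. Both counts were made up of Lingo1 and Tnfrsf19. Lingo1 averaged 181 ± 32.0 CPM with caffeine and 110 ± 33.7 CPM with saline (SD, n = 4), which is 0.73 ± 0.23 on the log2 scale (SE; adjusted p = 0.077, edgeR; higher in 4 of 4 libraries). Tnfrsf19 averaged 61.0 ± 14.9 and 86.9 ± 10.4 CPM, or -0.51 ± 0.16 on the log2 scale (adjusted p = 0.0699; below the saline mean in 4 of 4).

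Without the 4 libraries that stood apart, both passed with caffeine, at a log2 fold change of 0.52 for Lingo1 (adjusted p = 0.0159, edgeR) and -0.55 for Tnfrsf19 (adjusted p = 0.0465), where 10% of genes passed. Leaving out 1 library also brought a call, for Lingo1 without arecoline replicate 3 (adjusted p = 0.0449) and for Tnfrsf19 without caffeine replicate 3 (log2 fold change -0.68, adjusted p = 0.0261). Over 24 alternatives each, the adjusted p of Lingo1 ran from 0.0159 to 0.318 and that of Tnfrsf19 from 0.0261 to 0.21. Neither difference thus passed the adjusted threshold under every setting. Rtn4r had a log2 fold change of 0.73 ± 0.36 (adjusted p = 0.216, edgeR), Rtn4 of 0.22 ± 0.15 (0.388) and Omg of -0.11 ± 0.14 (0.652). Without the 4 libraries these were 0.45, 0.06 and -0.21. Rtn4rl2 had 0.22 ± 0.63 (adjusted p = 0.851), which turned to -0.13 without the 4 libraries.

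**Figure D3:**
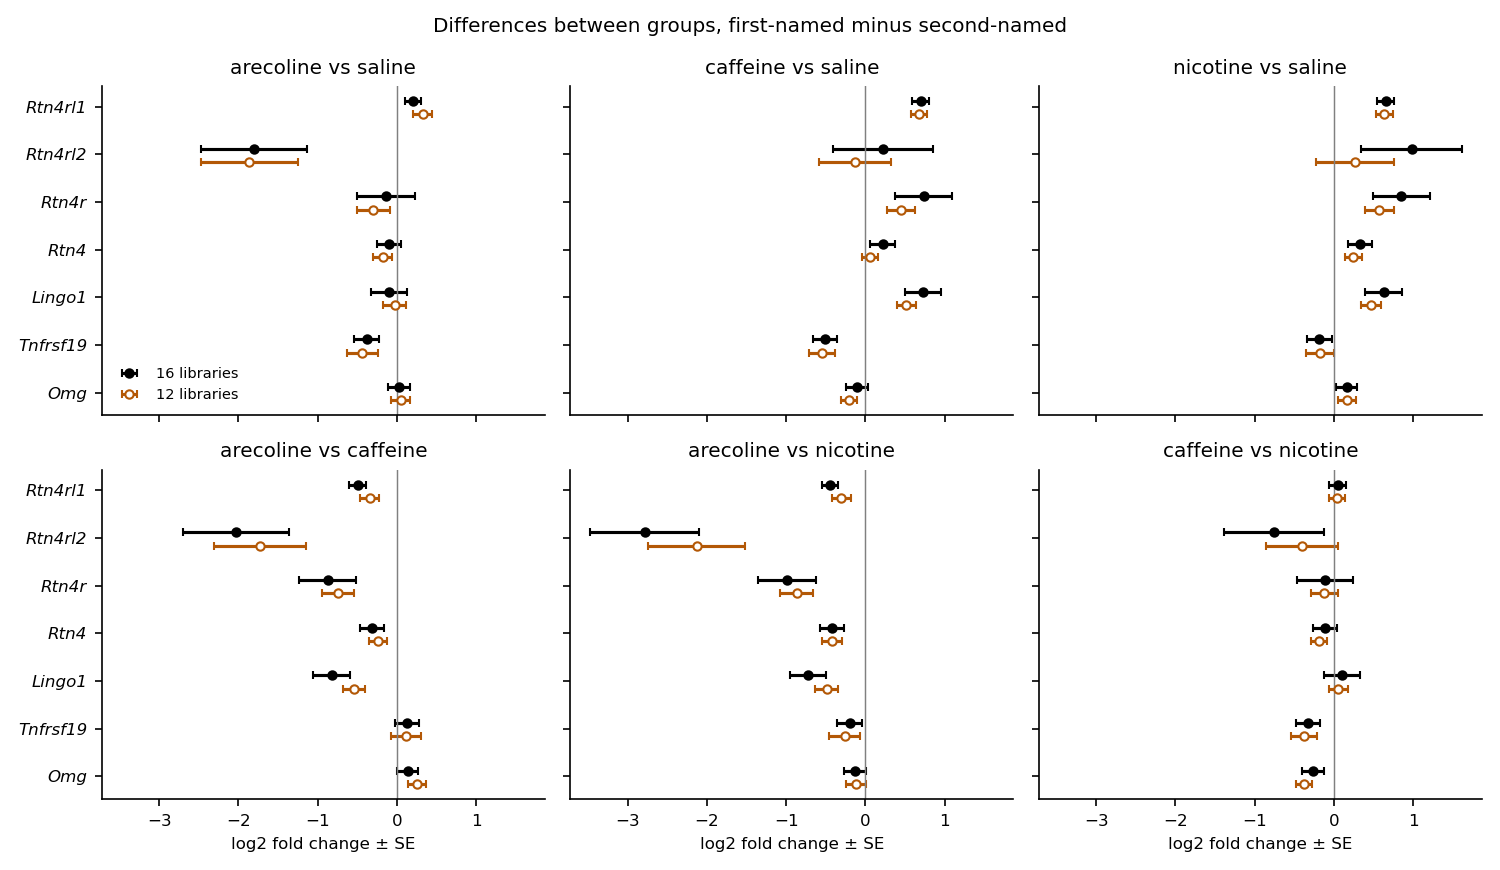
Log2 fold changes of the 7 genes in the 6 contrasts (points, with SE as bars) from the edgeR model over 16 libraries, and from the 12 libraries left without those that stood apart. Rtn4rl2 has the widest bars, and its change of -2.79 between arecoline and nicotine is the farthest from 0.

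With arecoline against saline, 1 of 7 genes was lower with no overlap between groups, against 3.76% of all genes. This was Tnfrsf19, at 66.6 ± 5.96 CPM against 86.9 ± 10.4 CPM, or -0.38 ± 0.16 on the log2 scale (adjusted p = 0.248, edgeR; lower in 4 of 4 libraries). Of the 6 genes tested, 0 passed in edgeR (0.0136% of all genes did), 2 had an unadjusted p under 0.05 (15.7% of all genes) and DESeq2 called 0 (3.47% of all genes). The second of these was Rtn4rl2, with 3.80 ± 2.04 CPM against 13.4 ± 10.9 CPM and a log2 fold change of -1.81 ± 0.67 (adjusted p = 0.207), which ran from 0.0809 to 0.484 over 24 alternatives. Rtn4r, Rtn4, Lingo1 and Omg had log2 fold changes of -0.14 ± 0.36, -0.10 ± 0.15, -0.10 ± 0.23 and 0.03 ± 0.14, each within 1 SE of 0.

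With nicotine against saline, 3 of 7 genes did not overlap (Rtn4rl1, Rtn4r and Lingo1, all higher), where 3.84% of all genes were higher without overlap. This contrast chose Rtn4rl1, so these counts are given only as description, and 0% of all genes passed the adjusted threshold in edgeR, with 12.2% at an unadjusted p under 0.05 and 107 genes, or 0.778%, called by DESeq2. The log2 fold changes were 0.98 ± 0.63 (SE) for Rtn4rl2, 0.85 ± 0.36 for Rtn4r, 0.63 ± 0.23 for Lingo1, 0.33 ± 0.15 for Rtn4, 0.16 ± 0.14 for Omg and -0.18 ± 0.16 for Tnfrsf19. Without the 4 libraries that stood apart they were 0.27, 0.57, 0.46, 0.25, 0.17 and -0.17 in the same order of genes. Tnfrsf19 was the gene of the 7 with a value below 0. The median over the 7 genes was 0.63, beside 0.02 over all genes, and against saline the medians were 0.22 with caffeine (all genes -0.02) and -0.10 with arecoline (all genes 0.00).

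Between compounds, arecoline lay below caffeine with no overlap in 4 of 7 genes (Rtn4rl1, Rtn4rl2, Rtn4 and Lingo1), where 5.19% of all genes did so. Of the 7 tested, 0 passed in edgeR, as did 0% of all genes, 4 had an unadjusted p under 0.05 (15.8% of all genes) and DESeq2 called 2, Rtn4rl1 and Lingo1, where it called 2.82% of all genes. Lingo1 had a log2 fold change of -0.82 ± 0.23 (SE; adjusted p = 0.144, edgeR), Rtn4r of -0.87 ± 0.36 (0.247), Rtn4 of -0.31 ± 0.15 (0.335) and Rtn4rl2 of -2.03 ± 0.67 (0.18). Tnfrsf19 and Omg had 0.13 ± 0.16 (0.742) and 0.14 ± 0.14 (0.674). Rtn4rl1 is among the genes in the overlap, unadjusted and DESeq2 counts. Its test is not independent of its choice, as stated above, so nothing is read from its part in them.

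Arecoline lay below nicotine with no overlap in 5 of 7 genes, all but Tnfrsf19 and Omg, where 5.04% of all genes did so. Rtn4rl1 is among the 5, and since its nicotine libraries took part in its choice nothing is read from it. The others were Rtn4rl2, Rtn4r, Rtn4 and Lingo1. Of the 6 tested, 0 passed in edgeR (0.0886% of all genes did), 4 had an unadjusted p under 0.05 (18.2% of all genes) and DESeq2 called 2, Rtn4rl2 and Lingo1, where it called 4.25% of all genes. Rtn4rl2 had 3.80 ± 2.04 CPM with arecoline and 26.6 ± 14.2 CPM with nicotine (SD, n = 4), or -2.79 ± 0.68 on the log2 scale (SE; adjusted p = 0.0685, edgeR; 0.0078 to 0.197 over 24 alternatives). The change of Rtn4rl2 was -2.13 without the 4 libraries that stood apart. Lingo1 had -0.73 ± 0.23 (adjusted p = 0.132), Rtn4r -0.99 ± 0.36 (0.175) and Rtn4 -0.42 ± 0.15 (0.174). Without the 4 libraries Rtn4r passed, at -0.87 (adjusted p = 0.0481, edgeR), as did 1.89% of all genes. The arecoline group then held replicates 1 and 4 alone, both low in striatal markers. Leaving out saline replicate 3 alone, which the contrast does not contain but the model does, gave adjusted p of 0.0375 for Rtn4rl2 and 0.0485 for Lingo1.

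Caffeine and nicotine overlapped in all 7 genes, where 6.11% of all genes did not. Of the 6 tested, 0 passed in edgeR, as did 0% of all genes, 0 had an unadjusted p under 0.05 (9.3% of all genes) and DESeq2 called 0 (0.0342% of all genes). Rtn4rl1 had a log2 fold change of 0.05 ± 0.10 (SE). The farthest from 0 were Rtn4rl2, at -0.76 ± 0.63, and Tnfrsf19, at -0.33 ± 0.16 (adjusted p = 0.537, edgeR).

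Markers of other cells moved with these levels. The summed level of 12 markers of cortical excitatory neurons, among them the vesicular glutamate transporter Slc17a7, was 416 to 1580 CPM with saline, 587 to 1250 with arecoline, 1620 to 2010 with caffeine and 1630 to 2070 with nicotine. As for Rtn4rl1 and Lingo1, the caffeine and nicotine libraries lay above all saline and arecoline libraries. All 12 markers were detected and none was at 0 in every library. Their part in the differences of Rtn4rl1, Rtn4rl2, Rtn4r, Rtn4 and Lingo1 was not tested.

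The 12 markers of medium spiny neurons summed to 1860 to 9270 CPM with saline, 484 to 9290 with arecoline, 526 to 1780 with caffeine and 828 to 1320 with nicotine. With a score of these markers as a covariate, the log2 fold change of Lingo1 with caffeine was 0.34 and that of Rtn4rl1 0.55. Of the glia, 12 oligodendrocyte markers summed to 7290 to 8430 CPM with saline, 4500 to 9630 with arecoline, 3450 to 5590 with caffeine and 3730 to 5960 with nicotine. The 10 astrocyte markers summed to 4620 to 6220, 3850 to 4450, 3280 to 4940 and 4190 to 5440 CPM in the same order of groups. The astrocyte sums of all arecoline libraries lay below those of all saline libraries, as Tnfrsf19 did. So did the sums of 9 endothelial and mural markers, at 228 to 348 CPM with arecoline and 368 to 434 CPM with saline. The part of either marker list in the difference of Tnfrsf19 was not tested.

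**Figure D4:**
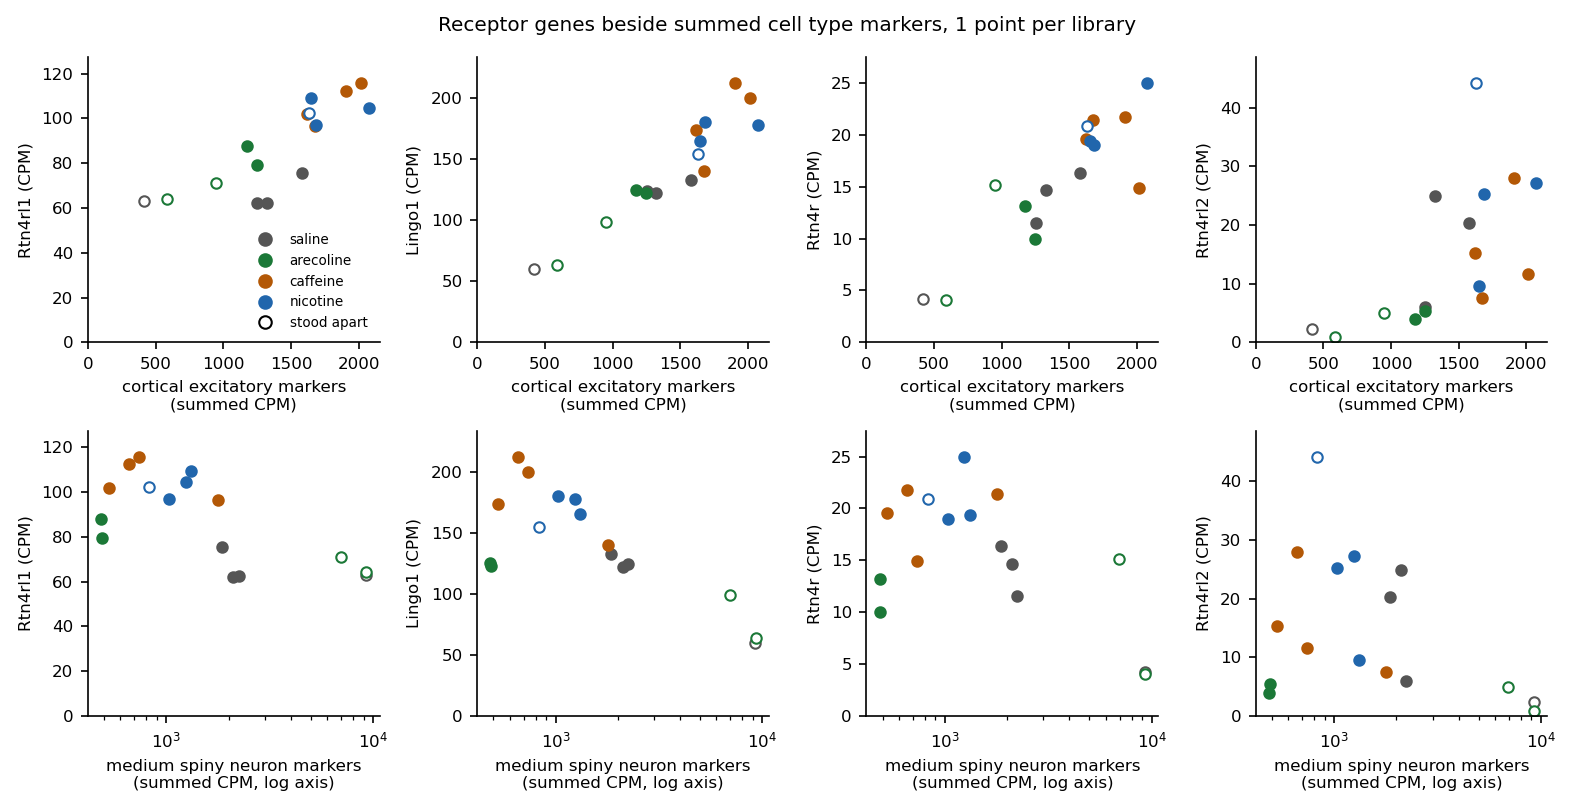
CPM of members (vertical axes) against the summed CPM of cell type markers (horizontal axes), 1 point per library, coloured by group, with open points for the 4 libraries that stood apart. Saline and arecoline libraries lie at 416 to 1580 CPM of cortical markers and caffeine and nicotine libraries at 1620 to 2070 CPM.

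Over the 16 libraries, as a description with no test, Rtn4r and Lingo1 had a Pearson r of log2 CPM of 0.89, Rtn4rl2 and Rtn4r of 0.83 and Rtn4rl1 and Lingo1 of 0.83. Without the 4 libraries that stood apart (n = 12) these were 0.67, 0.64 and 0.85. The libraries share group, depth and the marker differences above. Tnfrsf19 had -0.08 with Rtn4r and -0.25 with Lingo1, and Omg had 0.28 and 0.29 with them.

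By the same measure the genes most like Rtn4rl1 among all tested were Limd2 (0.944 over 16 libraries and 0.927 over 12), Gal3st3 (0.932 and 0.91), Rgl1 (0.93 and 0.942), Tnks1bp1 (0.923 and 0.9) and Plppr2 (0.916 and 0.904). For Rtn4rl2 they were Tbr1, Tspan5 and Ccdc3 (0.949 to 0.954), and for Rtn4r they were Adap1, Slc30a3 and Serpinb8 (0.94 to 0.95). Over 12 libraries r was 0.889, 0.908 and 0.891 for the first 3 and 0.917, 0.775 and 0.669 for those of Rtn4r. Tbr1, a transcription factor of deep-layer cortical neurons, and Slc30a3, the zinc transporter of synaptic vesicles, are on the cortical marker list. Rtn4 was most like Vsnl1, Olfm2 and Ndrg3 (0.933 to 0.95), and Lingo1 like Zfp703, Nell2 and Olfm1 (0.966 to 0.97). Tnfrsf19 was most like Rab31, Fgf1 and Gcnt4 (0.908 to 0.925), and Omg like Ccnc, Vmp1 and Zfp931 (0.888 to 0.902).

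Other genes of the pathway, or set beside it, were taken from 4 lists of 56 genes, of which 55 were tested. With caffeine against saline 2 were higher and 1 lower past the adjusted threshold in edgeR, against 2% and 2.09% of all genes. At an unadjusted p under 0.05 there were 18 of 55 (24.6% of all genes), and DESeq2 called 13 (10.7% of all genes). In each of the other 5 contrasts 0 of the 55 passed in edgeR. At an unadjusted p under 0.05 there were 10 for arecoline against saline (15.7% of all genes), 13 for nicotine against saline (12.2%) and 14 for arecoline against caffeine (15.8%). There were 8 for arecoline against nicotine (18.2%) and 3 for caffeine against nicotine (9.3%). DESeq2 called 4 (3.47% of all genes), 0 (0.778%), 1 (2.82%), 3 (4.25%) and 0 (0.0342%) in the same order.

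Without the 4 libraries that stood apart, edgeR called 10 of the 55 with caffeine against saline (10% of all genes), among them the 3 called over 16 libraries. It called 9 with arecoline against saline (6.39% of all genes) and 4 with arecoline against nicotine (1.89%), and the arecoline group then held replicates 1 and 4 alone. It called 0 in the other 3 contrasts, where 0.322% of all genes passed for nicotine against saline, 0.577% for arecoline against caffeine and 0% for caffeine against nicotine. The 9 were Sox11, Marcks and Dpysl2, which were higher with arecoline, and Mag, Bcan, Lingo3, Cntnap1, Limk1 and Wnk1, which were lower. The 4 were Sox11, higher, and Lingo3, Adgrb1 and Limk1, lower. Lingo3, a relative of Lingo1, had a log2 fold change against nicotine of 0.69 over 16 libraries and -1.45 over 12, so its direction turned with the libraries used. The names of Bcan, Lingo3 and Cntnap1 were chosen after their values were seen.

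The list of 13 other ligands and reticulons also held the myelin gene Mog. Of the 13, 1 fell with caffeine and 0 rose. The 1 was Mog, so it is not read as a change of a Nogo receptor ligand. Mog, a glycoprotein of the outer myelin surface, had 93.2, 72.7, 72.5 and 60.8 CPM with saline and 30.4, 40.5, 37.0 and 57.4 CPM with caffeine. The groups did not overlap, and the log2 fold change was -0.86 ± 0.20 (SE; adjusted p = 0.0292, edgeR). The summed oligodendrocyte markers were lower too, at 7290 to 8430 CPM with saline and 3450 to 5590 with caffeine, and their part in this result was not tested. Mag, the myelin ligand of Rtn4rl2 and Rtn4r, averaged 108 ± 14.9 CPM with caffeine and 191 ± 28.7 with saline (-0.83 ± 0.23, adjusted p = 0.0534), and the reticulon Rtn1 had a log2 fold change of 0.38 ± 0.11 (0.0633).

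Of the 13 other receptors and co-receptors, 1 rose with caffeine and 0 fell. Ptprs, a receptor tyrosine phosphatase that binds chondroitin sulfate proteoglycans, had 408, 414, 404 and 431 CPM with saline and 603, 581, 542 and 490 CPM with caffeine. All caffeine libraries were higher (log2 fold change 0.42 ± 0.11, adjusted p = 0.0423, edgeR). Its relative Ptprf had 0.34 ± 0.11 (adjusted p = 0.077) and the adhesion receptor Adgrb1 0.07 ± 0.29 (0.9). Adgrb1 was named for arecoline against nicotine, with 27.3, 87.2, 31.0 and 54.1 CPM against 102, 105, 108 and 79.8 CPM. Arecoline replicate 2 overlapped with nicotine, and the log2 fold change was -0.98 ± 0.29 (adjusted p = 0.11, edgeR; -1.24 and 0.0387 over 12 libraries).

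Of the 20 effectors of RhoA, ROCK and the cytoskeleton, 1 rose with caffeine and 0 fell. Dpysl2, whose product CRMP2 binds tubulin in growing axons, had 701, 543, 549 and 712 CPM with saline and 779, 881, 838 and 1009 CPM with caffeine. Every caffeine library was higher (0.48 ± 0.12, adjusted p = 0.0411, edgeR). Every arecoline library was higher than saline too, at 786 to 1013 CPM (0.48 ± 0.12, adjusted p = 0.0966, edgeR). Nicotine had 0.43 ± 0.12 against saline, given with no test. Arecoline against caffeine had -0.01 ± 0.12 (adjusted p = 0.958, edgeR), so the difference from saline was not particular to caffeine. The kinases Wnk1 and Limk1 had -0.43 ± 0.12 (adjusted p = 0.0602) and -0.48 ± 0.32 (0.358) with caffeine. Limk1, which phosphorylates cofilin, was named for arecoline, with 5.10, 14.0, 7.65 and 8.67 CPM, against 36.3, 27.3, 17.4 and 11.4 CPM with saline and 23.7, 25.3, 23.9 and 16.5 CPM with nicotine. Arecoline overlapped with saline and lay below all nicotine libraries. The log2 fold changes were -1.38 ± 0.33 against saline (adjusted p = 0.084, edgeR; -1.85 and 0.0154 over 12 libraries) and -1.33 ± 0.33 against nicotine (0.0698; -1.61 and 0.0466).

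Of the 9 growth-associated genes tested, 0 passed with caffeine in edgeR, with 0.37 ± 0.12 (adjusted p = 0.0807) for Gap43, 0.33 ± 0.11 (0.0776) for Marcks and 0.42 ± 0.26 (0.328) for Sox11. Their median was 0.33, beside -0.02 over all genes. Sox11, a transcription factor of immature neurons, was named for arecoline, with 97.6, 45.8, 65.5 and 71.5 CPM, against 26.4, 19.7, 30.6 and 48.3 CPM with saline and 31.8, 36.8, 27.2 and 26.7 CPM with nicotine. Arecoline lay above all nicotine libraries, and its replicate 2 overlapped with saline. The log2 fold changes were 1.17 ± 0.26 against saline (adjusted p = 0.0786, edgeR; 1.43 and 0.0135 over 12 libraries) and 1.20 ± 0.26 against nicotine (0.0571; 1.57 and 0.0148). Marcks, a membrane-bound actin regulator, had 0.46 ± 0.11 with arecoline against saline (adjusted p = 0.084; 0.53 and 0.0319 over 12 libraries).

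The calls with caffeine varied with the setting, since Mog passed in 18 of 24 alternatives, Ptprs in 12 and Dpysl2 in 13, and none of them passed with the striatal score as a covariate (log2 fold changes -0.65, 0.31 and 0.43, adjusted p = 0.101, 0.178 and 0.123). The fold changes kept their sign and ran from -1.05 to -0.65 for Mog, 0.31 to 0.48 for Ptprs and 0.42 to 0.55 for Dpysl2 over the 24 alternatives. Mog missed the threshold without saline replicate 1 or 2 or without caffeine replicate 1, 2 or 3. Ptprs missed it without any 1 saline library, without caffeine replicate 1, 2 or 3 or without nicotine replicate 3. Dpysl2 missed it without saline replicate 2 or 3, without any 1 caffeine library or without nicotine replicate 1, 3 or 4. Over all alternatives the adjusted p of Mog ran from 0.0021 to 0.119, that of Ptprs from 0.00677 to 0.178 and that of Dpysl2 from 0.00686 to 0.123.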

How the data were processed

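Per the labels' protocols, cDNA was primed with oligo-dT, extended by template switching and amplified by PCR. The tools, per the submitters' processing notes, were RSEM, HISAT2, StringTie 1.3.1, Bowtie2 2.2.8 and fastp 0.18.0, with the mm10 build. No annotation release is stated. The authors deposited estimated counts, not scaled for depth, per the file headers and values, and FPKM values, which the authors scaled to gene length and library total. No molecular identifiers are named, so amplified copies count as reads. Coordinates come from GENCODE M21 on mm10 and promoters from RefSeq.

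Counts were rounded to whole numbers, filtered with filterByExpr (14674 of 22337 genes kept), scaled by TMM and fitted with edgeR 4.0.16 (R 4.3.3, quasi-likelihood, a mean per group over 16 libraries). P-values were adjusted by Benjamini-Hochberg over all genes tested. DESeq2 1.42.0, limma 3.58.1 on log2 FPKM with a pseudocount of 0.1 or 1, RLE factors, no filter, a replicate block, a covariate of medium spiny neuron markers, the 12 libraries left without 4 that stood apart and leaving out each library were alternatives. Alternatives for the pathway genes past the threshold were added after seeing the data. No 2 libraries of a group matched within counting noise.

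Same-numbered libraries were compared by their deviations from group means: r ran from -0.28 to 0.49 over 24 pairs, and 8 were over 0.1, so numbers were not taken to pair libraries. The members and lists were chosen with earlier results of these data known. Genes named are the 7 members, pathway genes past the threshold and otherwise up to 3 per list with the smallest p over all contrasts but nicotine against saline, and the 5 (Rtn4rl1) or 3 genes with the highest r. Depth was 9.04 to 24.32 M counts, so 1 CPM rests on at least 9.04 counts.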

Additional observations from a re-analysis of the deposited data

Results flagged for a closer look

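Of 28 sets of 4 libraries (7 genes in 4 groups), 2 held a library far from the other 3 of its group, where chance flags about 1 in 20. Rtn4rl1 in saline replicate 2 stood at 75.65 CPM, above the other saline libraries at 62.11 to 63.15 CPM, and without it the log2 fold change with nicotine was 0.72 and with caffeine 0.77. Lingo1 in saline replicate 3 stood at 59.62 CPM, below the other saline libraries at 122.3 to 132.7 CPM. That library also stood apart by its striatal markers, with Drd1 at 306 CPM and Slc17a7 at 56.7 CPM, and without it the log2 fold change of Lingo1 with caffeine was 0.52.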

How the results depend on the processing

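The number of genes called moved with the tool. DESeq2 called 458 genes for arecoline against saline (2 in edgeR), 1496 for caffeine against saline (599), 107 for nicotine against saline (0), 380 for arecoline against caffeine (0), 609 for arecoline against nicotine (13) and 5 for caffeine against nicotine (0). It called 3, 1, 2 and 3 of the 7 genes for caffeine against saline, nicotine against saline, arecoline against caffeine and arecoline against nicotine, where edgeR called 1, 0, 0 and 0. Without the 4 libraries that stood apart, calls numbered 952 for arecoline, 1491 for caffeine and 48 for nicotine against saline, 86 for arecoline against caffeine and 282 for arecoline against nicotine, with 3, 1 and 1 of the 7 genes for caffeine and nicotine against saline and arecoline against nicotine. With the replicate block, calls numbered 98, 997 and 2 for arecoline, caffeine and nicotine against saline, 37 for arecoline against caffeine and 219 for arecoline against nicotine, with 3 of the 7 genes for caffeine against saline and 1 for arecoline against nicotine. The numbers only name libraries, so the block is not read as a weaker or stronger effect. With the striatal covariate, calls numbered 45 for arecoline and 61 for caffeine against saline and 135 for arecoline against nicotine. Of the 7 genes, 1 was called each for caffeine against saline and arecoline against nicotine. Both times it was Rtn4rl1, whose log2 fold change with caffeine against saline was 0.55. Libraries behind its choice took part in both contrasts, so nothing is read from these calls. The causes were not tested. The counts out of 7 include Rtn4rl1, and nothing is read from its calls where saline or nicotine libraries were compared. Of the genes other than Rtn4rl1, DESeq2 called 2 of 6 for caffeine against saline and 2 of 6 for arecoline against nicotine. For arecoline against caffeine it called Lingo1 and Rtn4rl1, and the test of Rtn4rl1 was not independent of its choice. No member was tested for nicotine against saline.

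Leaving out 1 library at a time gave 0 to 198 calls for arecoline, 23 (without caffeine replicate 1) to 995 (without saline replicate 1) for caffeine and 0 to 4 for nicotine against saline, 0 to 67 for arecoline against caffeine, 2 to 298 for arecoline against nicotine and 0 to 0 for caffeine against nicotine. Of the 7 genes, 1 to 2 were called for caffeine against saline and 0 to 1 for nicotine against saline. For arecoline against nicotine 0 to 3 were called, and 0 to 0 in the other 3 contrasts. Rtn4rl1 is counted here too, and nothing is read from its calls where saline or nicotine libraries were compared.

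Values near 0 changed sign. Rtn4rl2 with caffeine against saline was -0.13 without the 4 libraries and -0.57 with the striatal covariate, which also gave -0.0099 for Omg with arecoline against saline and -0.0124 for Lingo1 between caffeine and nicotine. Leaving out 1 library moved arecoline against saline from -0.42 to 0.13 for Rtn4r, -0.249 to 0.0554 for Rtn4, -0.302 to 0.0742 for Lingo1 and -0.0697 to 0.116 for Omg, and caffeine against saline from -0.22 to 0.73 for Rtn4rl2. With RLE factors, no filter or limma on FPKM at either pseudocount, all 42 fold changes of the 7 genes kept their direction and side of the threshold. Depth limits Rtn4rl2 most, with 13 estimated counts in its lowest library.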
